A study of Mus musculus with 16 samples.

Results

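The genes that make hemoglobin and mark the red cell lineage were described in cortical bone and skeletal muscle of aged mice. The 7 genes were chosen by name: the alpha globins Hba-a1 and Hba-a2, the beta globins Hbb-bs and Hbb-bt, and Alas2, Slc4a1 and Klf1. All 7 were among the 38933 genes measured in cortical bone, and 6 of the 7 were among the 21011 genes measured in skeletal muscle, where Klf1 was not analysed here. The mice were C57BL/6 females aged 18 months at the start of treatment. They received BAY2416964 (BAY), a small molecule inhibitor of the aryl hydrocarbon receptor, at 30 mg/kg by oral gavage on 5 days per week for 8 weeks, or its vehicle (VEH) of ethanol, Solutol and water on the same schedule. RNA-seq was made from 4 BAY and 4 VEH libraries of each tissue, and no group carried an altered allele. The comparison asked how much globin and erythroid RNA each library held, which serves as a sign of blood or marrow in the tissue, and whether BAY and VEH mice differed in it.

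Hemoglobin is a tetramer of alpha and beta chains, each holding a heme group that binds oxygen. Its chains and its heme are made in erythroblasts of the marrow, which lose their nucleus and enter the blood as reticulocytes that still hold globin mRNA. Alas2 encodes the erythroid form of the first enzyme of heme synthesis, Slc4a1 encodes band 3, the anion exchanger of the red cell membrane, and Klf1 is a transcription factor that drives beta globin and many other erythroid genes in erythroblasts. Globin mRNA in a solid tissue is therefore commonly read as blood or marrow in the sample. In a bulk sample, fewer cells of a type and less RNA per cell cannot be told apart. The cortical bone shafts had been emptied of marrow for cell culture and digested with collagenase before the RNA was extracted, and blood had been drawn from the heart at the end of the study.

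The globin genes come as near copies, and the sequences below are shown because 1 base is all that separates the coding sequences within each pair. In each pair the capital letter marks the differing base, within a stretch of coding sequence read 5′ to 3′ from the GRCm39 reference on the strand of the gene.
Hba-a1: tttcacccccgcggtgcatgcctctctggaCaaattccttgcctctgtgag
Hba-a2: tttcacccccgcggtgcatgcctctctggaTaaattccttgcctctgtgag
Hbb-bs: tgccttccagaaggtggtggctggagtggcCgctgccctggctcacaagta
Hbb-bt: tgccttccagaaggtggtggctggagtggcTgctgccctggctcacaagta
The Hba-a1 stretch lies at chr11:32234313-32234363 on the plus strand and the Hba-a2 stretch at chr11:32247130-32247180 on the plus strand. The Hbb-bs stretch lies at chr7:103475879-103475929 on the minus strand and the Hbb-bt stretch at chr7:103461870-103461920 on the minus strand. Counted from the first base of the start codon, Hba-a2 differs from Hba-a1 by C381T over 429 coding bases, and Hbb-bt differs from Hbb-bs by C417T over 444 coding bases. Both differences are at the third base of a codon and leave the same protein. In the reference transcripts, 70.1% of the 100-base windows of Hba-a1 and 81.8% of those of Hba-a2 occurred unchanged in the other alpha gene, and 58.6% of those of Hbb-bs and 54.7% of those of Hbb-bt occurred unchanged in the other beta gene. With windows of 150 bases the shares were lower, at 61.0% for Hba-a1, 72.1% for Hba-a2, 54.6% for Hbb-bs and 50.6% for Hbb-bt.

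The deposited values carried the mark of this sharing. The authors' expectation-maximization counting divides a read that fits several genes between them. When the values were turned back into reads, 2 of 64 single globin values were whole numbers within 0.02 reads. All 32 sums over an alpha or a beta pair were whole within the same tolerance. The reads were thus divided within each pair, and the sum of a pair does not depend on how they were divided. The level of any one of the 4 globin genes is uncertain to that extent, and the values of single genes below are given with the pair sums.

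In cortical bone the 4 globin genes together took 587, 77.3, 285 and 528 counts per 1000000 reads on genes (CPM) in VEH replicates 1 to 4, and 229, 324, 263 and 51.6 CPM in BAY replicates 1 to 4. The largest globin share of a bone library was 0.0587% (95% Wilson interval 0.0569 to 0.0605%), in VEH replicate 1, and the smallest was 0.00516% (0.00389 to 0.00684%), in BAY replicate 4. These intervals cover counting error only. In skeletal muscle, here the tibialis anterior, the same sum was 80.0, 165, 103.6 and 81.9 CPM in VEH and 73.5, 60.2, 115 and 116 CPM in BAY. The groups overlapped in both tissues, and in each tissue the lowest library was a BAY library and the highest a VEH library. The 2 tables were normalized separately, so that the levels of bone and muscle are set side by side without a test.

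The libraries behind these values differed in depth, with 930306 to 6951928 reads on genes in bone and 6131894 to 9262370 in muscle. The globin sums rested on 48 to 4080 reads in bone and on 369 to 1182 reads in muscle. The bone libraries also differed in how much signal lay on genes that bone cells should not express. The 1355 olfactory receptor genes together had a density of 0.138, 7.89, 1.47 and 6.05 CPM per kb of transcript in VEH replicates 1 to 4 and 3.24, 2.77, 2.80 and 9.50 in BAY replicates 1 to 4. VEH replicate 1, the deepest bone library, stood below all the others, and BAY replicate 4, the shallowest, stood above them. The globin sum was highest in the library with the lowest olfactory density and lowest in the library with the highest, but VEH replicate 4 combined a high olfactory density with a high globin sum. With the density subtracted for each gene's length and the values taken as log2(CPM + 1), none of the 7 genes was called in bone.

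**Figure D1:**
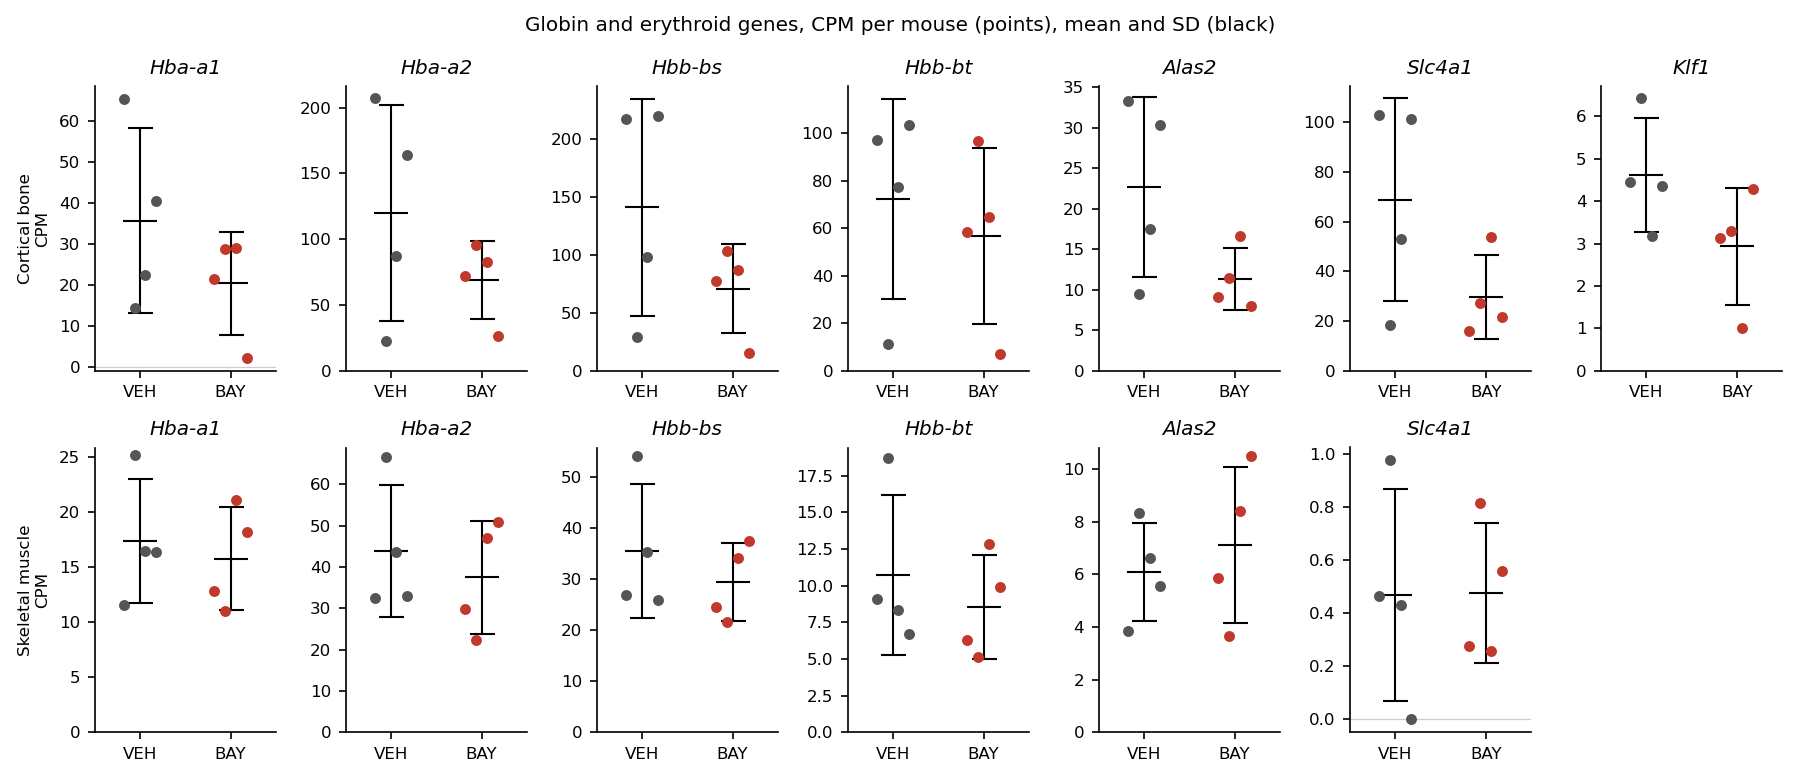
CPM of each gene in every mouse, with cortical bone in the upper row and skeletal muscle in the lower row. Gray points are VEH and red points BAY, in the order of replicates 1 to 4, with the mean and SD in black (n = 4 per group), and the groups overlap in every panel.

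For the alpha globins in bone, Hba-a1 (ENSMUSG00000069919, chr11:32233511-32234466 in mm39) measured 65.3, 14.4, 22.5 and 40.3 CPM in VEH and 21.4, 28.8, 29.1 and 2.17 CPM in BAY. Hba-a2 (ENSMUSG00000069917, chr11:32246489-32247299) measured 207, 22.4, 87.0 and 164 CPM in VEH and 72.0, 95.3, 82.4 and 26.9 CPM in BAY. The alpha pair summed to 273, 36.8, 109 and 205 CPM in VEH and 93.4, 124, 112 and 29.0 CPM in BAY. VEH replicates 1 and 4 were highest and VEH replicate 2 was low, within or near the BAY range, for both genes. On the log2 scale of the deposited values, BAY minus VEH was -1.11 for Hba-a1 (SE 0.89, 95% interval -3.04 to 0.81) and -0.53 for Hba-a2 (SE 0.73, -2.11 to 1.05). Neither passed the test (limma, adjusted P = 0.887 for both), and the exact 2-sided permutation test over the 8 mice gave P = 0.371 and 0.543.

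For the beta globins in bone, Hbb-bs (ENSMUSG00000052305, chr7:103475741-103477304) measured 217, 29.3, 98.0 and 220 CPM in VEH and 77.4, 103, 86.8 and 15.5 CPM in BAY. Hbb-bt (ENSMUSG00000073940, chr7:103461731-103463204) measured 97.3, 11.2, 77.4 and 103 CPM in VEH and 58.5, 96.8, 65.0 and 7.12 CPM in BAY. The beta pair summed to 314, 40.5, 175 and 323 CPM in VEH and 136, 200, 152 and 22.6 CPM in BAY. The same libraries were high and low as for the alpha globins. The differences were -0.92 for Hbb-bs (SE 0.79, 95% interval -2.62 to 0.78) and -0.43 for Hbb-bt (SE 0.91, -2.41 to 1.54), and neither passed the test (limma, adjusted P = 0.887 and 0.903, exact permutation P = 0.457 and 0.486).

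For the genes of heme synthesis, membrane and transcription, Alas2 (ENSMUSG00000025270, chrX:149330371-149353635) measured 33.4, 9.54, 17.6 and 30.4 CPM in VEH bone and 9.13, 11.5, 16.7 and 8.02 CPM in BAY bone. Slc4a1 (ENSMUSG00000006574, chr11:102239650-102257030) measured 103, 18.4, 53.1 and 101 CPM in VEH and 16.1, 27.3, 54.0 and 21.5 CPM in BAY. Klf1 (ENSMUSG00000054191, chr8:85628557-85631925) measured 4.46, 6.44, 3.19 and 4.37 CPM in VEH and 3.13, 3.31, 1.02 and 4.30 CPM in BAY, on 31 reads in VEH replicate 1 and 2 to 9 reads in each of the others. VEH replicates 1 and 4 were again highest for Alas2 and Slc4a1, while Klf1 followed another order, with VEH replicate 2 highest. The differences were -0.90 for Alas2 (SE 0.69, 95% interval -2.40 to 0.60), -1.08 for Slc4a1 (SE 0.68, -2.55 to 0.39) and -0.79 for Klf1 (SE 1.22, -3.41 to 1.84), with an adjusted P of 0.887 for each (limma) and exact permutation P = 0.114, 0.2 and 0.143.

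All 7 genes were thus lower in BAY bone on average, where 19.1% of all bone genes were, and none of the 7 was called. A gene was called when its unadjusted P in limma was under 0.05 and its change at least 2-fold, and 0.64% of all bone genes were. In none of the 7 did the BAY and VEH groups lie apart, where 0.406% of all bone genes did. On the deposited values with the trend, no bone gene passed an adjusted P of 0.05 in limma, while 249 had an unadjusted P under 0.05 and were called, 212 raised and 37 lowered. Over all genes, an adjusted P of 0.05 was passed in bone by 0 genes with voom on the recovered reads, 1 with log2(CPM + 1), 31 without the trend and 49 with voom without VEH replicate 1, and in muscle by 25 with voom, 23 with log2(CPM + 1), 40 without the trend and 35 with log2(CPM + 0.1). The median change of all bone genes was 0.84 on the log2 scale, and without VEH replicate 1 it was -0.09. When each library was centered on its median gene, the calls became 295 raised and 148 lowered, and without VEH replicate 1 and BAY replicate 4 they were 238 raised and 319 lowered. After centering the 7 members differed by -1.96 for Hba-a1, -1.93 for Slc4a1, -1.77 for Hbb-bs, -1.75 for Alas2, -1.64 for Klf1, -1.38 for Hba-a2 and -1.29 for Hbb-bt, again with none called. Centering moved the difference of every gene by the same amount, so these values add nothing on the members beyond the uncentered ones. The median over all bone genes was 0.575 CPM in VEH replicate 1 and 14.4 CPM in BAY replicate 4. The exact permutation P of the members ran from 0.114 to 0.543, where the smallest that 4 mice against 4 allow is 0.0286.

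Single bone libraries decided how large these differences were. Without VEH replicate 2, the VEH library with the least globin, Slc4a1 was called, lower in BAY by a log2 change of -1.62 (limma, adjusted P = 0.494), since its unadjusted P came under 0.05. That was the only member called in any of 19 alternative settings. The 4 globins also lay lower without VEH replicate 2, at -1.47 for Hba-a1, -1.20 for Hba-a2, -1.55 for Hbb-bs and -1.19 for Hbb-bt. Without BAY replicate 4, Hbb-bt turned to 0.40 and Hba-a1 came to -0.22. Without VEH replicate 1, Hba-a2 came to -0.13. With both VEH replicate 1 and BAY replicate 4 left out, all 4 globins turned to the other direction, with 0.15 for Hba-a1, 0.27 for Hba-a2, 0.046 for Hbb-bs and 0.68 for Hbb-bt, while Alas2, Slc4a1 and Klf1 stayed lower in BAY at -0.52, -0.69 and -1.03.

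In skeletal muscle, Hba-a1 measured 11.6, 25.2, 16.4 and 16.4 CPM in VEH and 12.9, 11.0, 21.1 and 18.2 CPM in BAY. Hba-a2 measured 32.4, 66.7, 43.6 and 33.0 CPM in VEH and 29.8, 22.4, 47.0 and 50.8 CPM in BAY. Hbb-bs measured 26.9, 54.2, 35.3 and 25.9 CPM in VEH and 24.5, 21.6, 34.1 and 37.5 CPM in BAY. VEH replicate 2 held the highest value and BAY replicate 2 the lowest for each of these 3 globins. Hbb-bt, at 9.11, 18.7, 8.35 and 6.69 CPM in VEH and 6.29, 5.15, 12.9 and 9.92 CPM in BAY, had the same highest and lowest libraries. The alpha pair summed to 44.0, 91.9, 60.0 and 49.4 CPM in VEH and 42.7, 33.4, 68.1 and 69.0 CPM in BAY, and the beta pair to 36.0, 72.9, 43.6 and 32.6 CPM in VEH and 30.8, 26.7, 47.0 and 47.4 CPM in BAY. The 4 globins differed between BAY and VEH by -0.13 for Hba-a1 (SE 0.24, 95% interval -0.66 to 0.39), -0.24 for Hba-a2 (SE 0.27, -0.82 to 0.34), -0.24 for Hbb-bs (SE 0.23, -0.74 to 0.26) and -0.30 for Hbb-bt (SE 0.33, -1.01 to 0.41).

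Alas2 in muscle measured 3.87, 8.31, 6.64 and 5.56 CPM in VEH and 5.87, 3.66, 8.39 and 10.5 CPM in BAY, a difference of 0.17 (SE 0.32, 95% interval -0.52 to 0.85). Slc4a1 was near the limit of counting in muscle, with 4, 7, 4 and 0 reads in VEH replicates 1 to 4 and 2, 5, 2 and 4 reads in BAY, or 0.466, 0.976, 0.432 and 0 CPM against 0.275, 0.815, 0.258 and 0.561 CPM. A count of 0 in VEH replicate 4 allows a level of up to 0.358 CPM at 3 reads. The fitted difference of Slc4a1, 2.17 (SE 2.04), rested on that 0 and turned to -0.45 without that library. Of the 6 genes measured in muscle, 4 were lower in BAY, where 44.8% of all muscle genes were. None was called, where 2.43% of all muscle genes were, and none had groups that lay apart, where 5.73% did. Adjusted P values in limma ran from 0.733 to 0.877, and exact permutation P values from 0.457 to 0.743. On the deposited values with the trend, no muscle gene passed an adjusted P of 0.05 in limma, the smallest being 0.184, while 2056 had an unadjusted P under 0.05. Directions were not firm: Hba-a1, Hbb-bt and Alas2 each changed sign when a single library was left out.

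**Figure D2:**
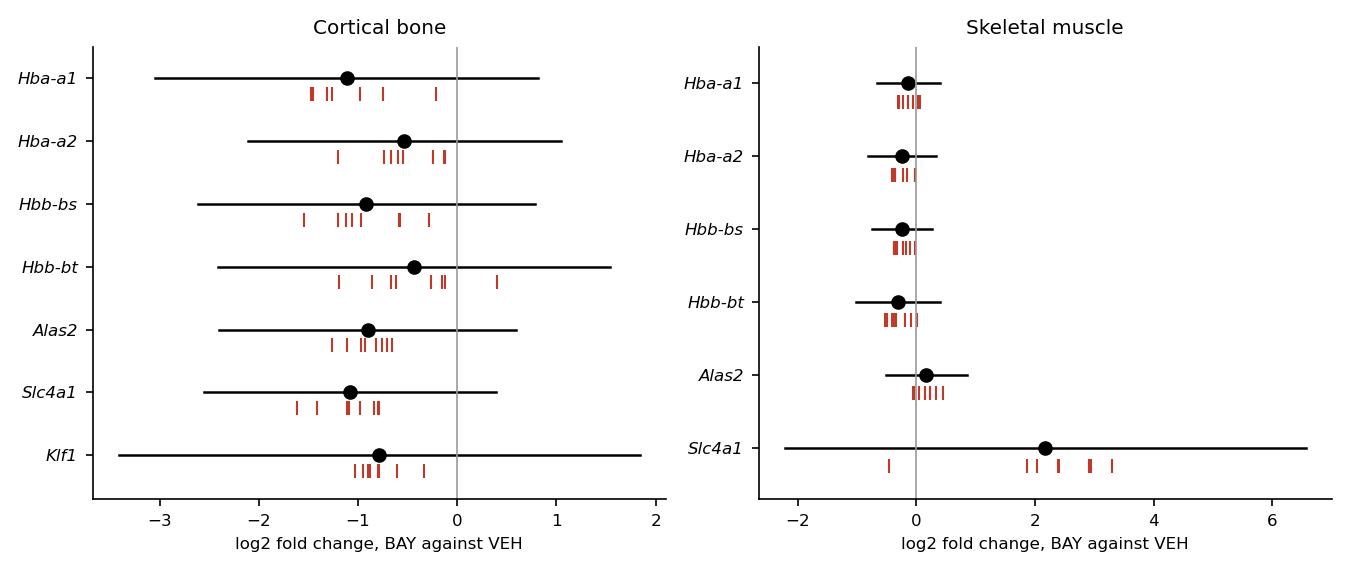
Log2 fold change of BAY against VEH for each gene (black points) with the 95% interval from limma (lines), in cortical bone on the left and skeletal muscle on the right. Red ticks under each line are the same value with 1 library left out, and every interval includes 0.

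Per kb of transcript, the bone levels averaged over the 8 libraries were 159 CPM for Hbb-bs, 146 for Hba-a2, 91.8 for Hbb-bt, 37.9 for Hba-a1, 10.8 for Slc4a1, 8.35 for Alas2 and 2.45 for Klf1. Each gene stood above the next in 6 to 8 of the 8 libraries. The closest neighbors were Hbb-bs over Hba-a2, with 7 of 8 libraries in that order, and Slc4a1 over Alas2, with 6 of 8. Neither of these differences was tested. The places of single globin genes in either tissue depend on how the shared reads were divided. In muscle the order was Hba-a2 at 62.9 CPM per kb, Hbb-bs at 48.9, Hba-a1 at 22.5, Hbb-bt at 13.7, Alas2 at 3.24 and Slc4a1 at 0.104, and all 8 libraries kept each step of it.

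Against the olfactory density of the same bone library, Hbb-bs stood 2362 times higher in VEH replicate 1 and 2.45 times higher in BAY replicate 4, with 5.59 to 100 times in the others. Hba-a2 likewise stood above that density in all 8 libraries. In BAY replicate 4, Hba-a1 lay below it at 0.310 times and Hbb-bt stood at 1.06 times, so that the Hba-a1 value of the library that set most of its difference was not above that background. Slc4a1 was below it in 2 libraries, at 0.513 times the density in VEH replicate 2 and 0.498 times in BAY replicate 4, and at 1.09 times in BAY replicate 1. Alas2 was below it in VEH replicate 2 and BAY replicate 4 too, at 0.593 and 0.414 times. Klf1 was below it in 6 of 8 libraries and above it only in VEH replicate 1, at 20.9 times, and VEH replicate 3, at 1.405 times. In the other libraries Klf1 reads were therefore no denser than reads on olfactory receptor genes, and Klf1 could not be told from that background.

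**Figure D3:**
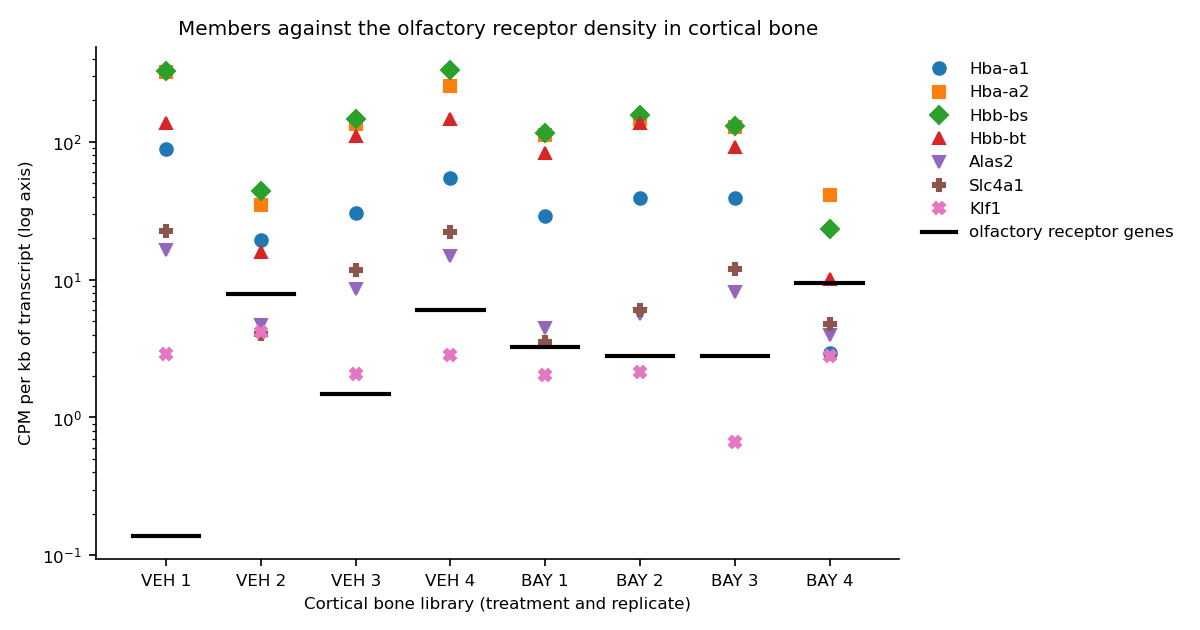
CPM per kb of transcript (log axis) of the 7 genes in each cortical bone library, with a black bar at the density of the 1355 olfactory receptor genes in the same library. The bar lies below every gene in VEH replicate 1 and above Slc4a1, Alas2 and Klf1 in VEH replicate 2 and BAY replicate 4, where it also lies above Hba-a1 in BAY replicate 4.

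The ratio of band 3 to globin differed in size between the tissues. Per 100 CPM of globin, Slc4a1 was 17.5, 23.8, 18.7 and 19.2 CPM in VEH bone and 7.02, 8.42, 20.5 and 41.7 CPM in BAY bone. In muscle it was 0.582, 0.592, 0.417 and 0 CPM in VEH and 0.375, 1.36, 0.224 and 0.482 CPM in BAY. All 8 bone libraries lay above all 8 muscle libraries, and the median bone value was 42.1 times the median muscle value. After the olfactory density was subtracted for each gene's length, the bone values were 17.4, 0, 16.5 and 14.4 in VEH and 0.617, 4.64, 16.1 and 0 in BAY, so that VEH replicate 2 and BAY replicate 4 held no Slc4a1 above that density and BAY replicate 1 fell within the muscle range. Among the VEH replicates, 1, 3 and 4 held 14.4 to 17.4 CPM per 100 with the density subtracted, and BAY replicate 3 held 16.1. As the tables were normalized separately and RNA was extracted by different methods, the tissues were not tested against each other, and the ratio of genes within a library is the quantity compared.

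Alas2 per 100 CPM of globin overlapped between the tissues before the olfactory density was subtracted. It was 5.68, 12.3, 6.17 and 5.76 CPM in VEH bone, 3.98, 3.53, 6.33 and 15.5 CPM in BAY bone, 4.83, 5.04, 6.41 and 6.78 CPM in VEH muscle and 7.996, 6.08, 7.29 and 8.998 CPM in BAY muscle. The 2 highest bone values were those of VEH replicate 2 and BAY replicate 4, where Alas2 lay below the olfactory density. With that density subtracted, the bone values were 5.64, 0, 5.19 and 3.53 in VEH and 1.15, 1.84, 4.29 and 0 in BAY, so that 6 of 8 bone libraries lay below every muscle library. The density was not subtracted in muscle. In muscle, 3 of the 4 BAY values lay above all VEH values.

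The balance of alpha and beta globin, from the pair sums, also differed between tissues. Per kb, alpha over beta was 0.857, 0.898, 0.617 and 0.625 in VEH bone and 0.679, 0.612, 0.726 and 1.27 in BAY bone, against 1.21, 1.24, 1.36 and 1.498 in VEH muscle and 1.37, 1.23, 1.43 and 1.44 in BAY muscle. Beta globin was thus the more abundant in 7 of 8 bone libraries, and alpha globin in all 8 muscle libraries. BAY replicate 4, the bone library with the ratio above 1, rested on 27 alpha and 21 beta reads. Within the alpha pair, Hba-a2 took 60.9 to 92.5% of the reads in bone and 66.8 to 73.7% in muscle. Within the beta pair, Hbb-bs took 51.6 to 72.3% in bone and 72.6 to 80.9% in muscle. These shares depend on how the shared reads were divided.

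**Figure D4:**
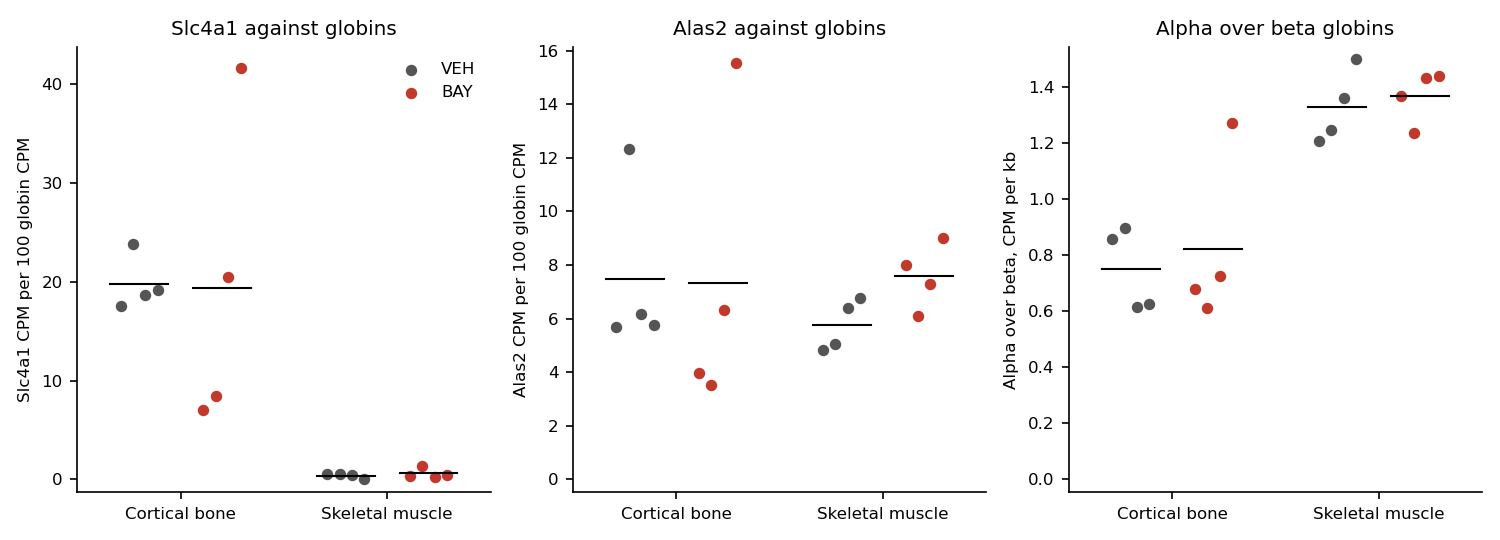
Slc4a1 and Alas2 in CPM per 100 CPM of globin, and alpha over beta globin per kb, in each library of both tissues, with VEH in gray, BAY in red and group means as black lines (n = 4 per group). The Slc4a1 ratio of every bone library, 7.02 or more, lies above that of every muscle library, 1.36 or less.

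Other genes of the red cell lineage were read from 7 further lists, of which Hp in muscle and Hba-x in bone were the only genes called in the main result. Of 16 genes of heme synthesis and erythroid iron uptake, none was called in either tissue, with a median change of 0.32 in bone beside 0.84 over all genes, and of -0.10 in muscle beside 0.06 over all genes. Fech, which inserts iron into the heme ring, measured 77.8 ± 29.9 CPM in VEH bone and 69.3 ± 16.1 in BAY bone (SD, n = 4), and 66.3 ± 10.6 and 63.6 ± 5.31 CPM in muscle. Alas1, the enzyme of heme synthesis found in all tissues, measured 56.1 ± 5.81 CPM in VEH muscle and 52.0 ± 6.28 in BAY muscle, above Alas2 in every muscle library. Tfrc, the transferrin receptor, measured 30.9 ± 5.19 CPM in VEH muscle and 23.2 ± 6.53 in BAY muscle, a log2 change of -0.45 that was under 2-fold and not called (limma, adjusted P = 0.499).

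Of the 9 erythroid transcription factors, 9 were measured in bone, with a median change of 0.14 and none called. In muscle, 6 of the 9 were measured, without Gata1, Gfi1b and Nfe2. All 6 were higher in BAY on average, where 44.8% of all muscle genes were lower. Their median change was 0.48 beside 0.06 over all genes. None was called because each change was under 2-fold or did not pass the test. Ldb1, a cofactor that links erythroid factors at enhancers and is expressed in many tissues, measured 14.2 ± 2.15 CPM in VEH and 19.5 ± 1.97 in BAY (log2 change 0.47, limma, adjusted P = 0.344). Zfpm1, a partner of GATA factors, measured 5.60 ± 1.04 and 7.99 ± 2.05 CPM (0.50, limma, adjusted P = 0.498). The summed level of the 6 was 20.4 to 26.8 CPM in VEH and 29.8 to 36.7 CPM in BAY. The sum was not tested, and of all single muscle genes 5.73% had groups that lay apart. Most of that sum was Ldb1, whose own groups overlapped at 12.1 to 17.0 CPM in VEH and 16.6 to 20.8 CPM in BAY, and Bcl11a and Myb, named after their values were seen, had at most 3 reads in any library.

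Of 17 genes of the red cell membrane and its skeleton, 16 were measured in bone and 11 in muscle, and none was called in either. Sptb (beta spectrin), Ank1 (ankyrin) and Epb41 (protein 4.1), among the 4 most abundant in each tissue, are also expressed in muscle fibers. Sptb measured 103 ± 24.6 CPM in VEH bone and 147 ± 75.7 in BAY bone, and 484 ± 87.8 and 658 ± 132 CPM in muscle (0.44 in muscle, limma, adjusted P = 0.462). Of 16 genes of the late erythroid cytoplasm, 15 were measured in bone and 9 in muscle, with none called and medians of -0.02 and -0.06. Bnip3l, which clears mitochondria from reticulocytes and acts in many other cells, measured 19.2 ± 3.55 CPM in VEH muscle and 14.5 ± 1.91 in BAY muscle (-0.40, limma, adjusted P = 0.465).

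Of 9 genes that bind or clear hemoglobin and heme, none was called in bone and 1 in muscle. Hp (haptoglobin, which binds free hemoglobin) was lower in BAY muscle, with 0.418 to 7.77 CPM in VEH and 0 to 0.326 CPM in BAY and a fitted log2 change of -4.53 (SE 1.92, limma, adjusted P = 0.475). The highest value, 72 reads, was in VEH replicate 3, the library with high adipocyte genes described below, and without it the change was -3.59 and the call was lost. The size of the Hp change depended on the offset, since BAY held a library at 0, and was -1.05 with log2(CPM + 1). Fth1 and Ftl1, the ferritin chains that store iron, were not called in either tissue. Of the embryonic and theta globins, 2 of 8 were measured in bone, Hba-x and Hbq1b. Hba-x was called as raised, but no VEH library held a read and no BAY library more than 2, so that both groups were under 3 reads per library and no fold is given. Of the globins of other tissues, Mb (myoglobin, the oxygen store of muscle fibers) ranged from 1.46 to 188 CPM in VEH bone and 5.37 to 528 CPM in BAY bone, and was 862 ± 139 CPM in VEH muscle and 957 ± 174 CPM in BAY muscle, with no gene of that list called.

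Markers of other cells were summed to show what else the libraries held. In bone, the 12 neutrophil genes, which mark marrow and blood granulocytes, summed to 220, 114, 573 and 2207 CPM in VEH and 68.4, 98.0, 1284 and 236 CPM in BAY. Their highest libraries were VEH replicate 4 and BAY replicate 3, while the globin sum was highest in VEH replicate 1, with a neutrophil sum in the middle of the range, and second highest in VEH replicate 4. The 7 platelet genes summed to 24.5 to 114 CPM in VEH and 18.6 to 126 CPM in BAY, the 8 B cell genes to 27.5 to 261 and 91.0 to 228 CPM, and the 8 monocyte and macrophage genes to 133 to 835 and 96.1 to 567 CPM. None of these genes was called. The olfactory density was not subtracted from these sums.

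The tissue labels were checked in the same way. The 9 osteoblast and osteocyte genes summed to 7150, 1444, 29932 and 22072 CPM in VEH bone and 1950, 1680, 21922 and 2201 CPM in BAY bone, and the 9 muscle fiber genes to 9566, 246, 81.2 and 42.2 CPM in VEH bone and 36423, 39589, 1380 and 91.2 CPM in BAY bone. In bone, 0 of 9 were called in both lists, a count that changed with the setting: with log2(CPM + 1), 3 of the bone cell genes and 9 of the muscle fiber genes were called. BAY replicates 1 and 2 thus held more muscle fiber transcripts than bone cell transcripts, as did VEH replicate 1, and their globin sums were 229, 324 and 587 CPM. In muscle, the muscle fiber genes summed to 110438 to 184591 CPM in all 8 libraries. The 1 neutrophil gene measured in muscle, Lcn2, had at most 3 reads in any library, and the 3 platelet genes summed to at most 1.98 CPM. The 6 adipocyte genes summed to 322 CPM in muscle VEH replicate 3 and to 38.5 to 56.1 CPM in the others, where Plin1, which coats fat droplets, was called as lower in BAY (-2.13, limma, adjusted P = 0.48), and not without that library. The endothelial genes, which mark vessels, summed to 198 to 220 CPM in VEH muscle and 209 to 252 CPM in BAY muscle, and none was called in either tissue. The part of these cells in the globin values was not tested.

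**Figure D5:**
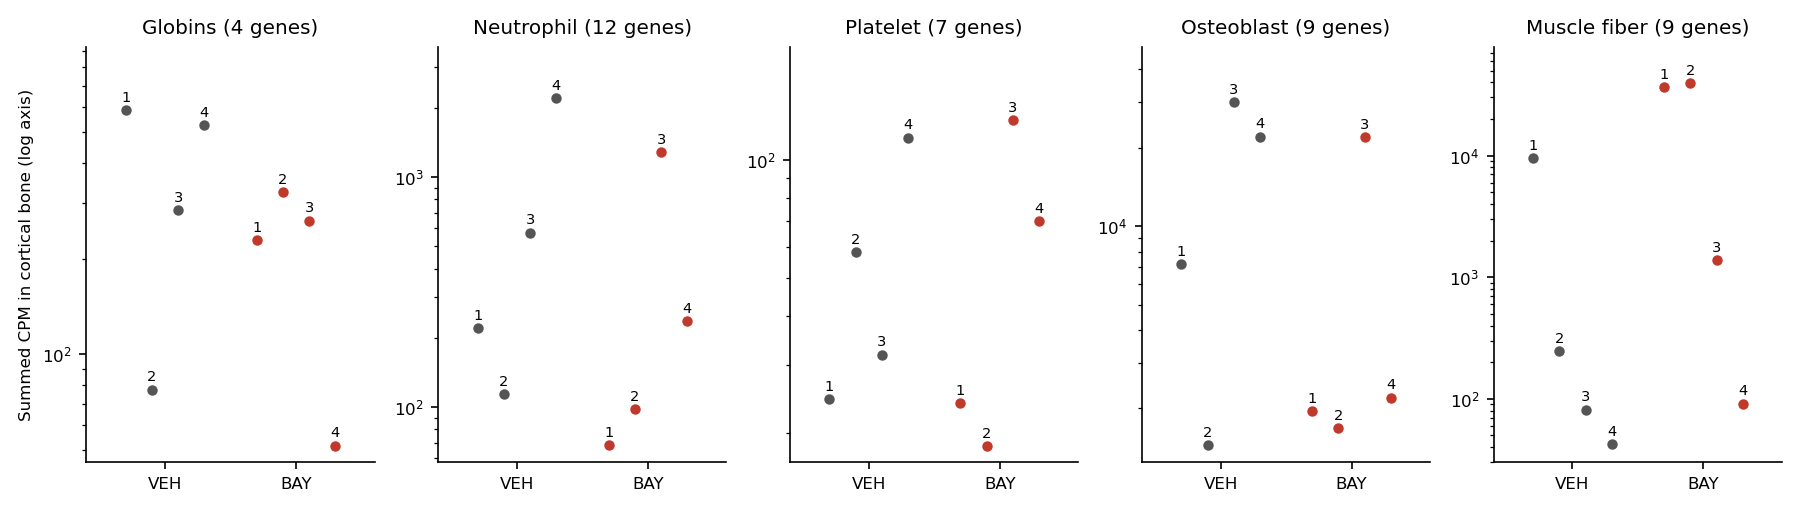
Summed CPM (log axis) of the 4 globin genes and of the marker lists of neutrophils, platelets, osteoblasts with osteocytes, and muscle fibers in each cortical bone library, VEH in gray and BAY in red, with the replicate number above each point. VEH replicate 4 and BAY replicate 3 are high for neutrophil, platelet and bone cell genes, VEH replicate 3 is highest for bone cell genes but low for platelet genes, and VEH replicate 1, BAY replicate 1 and BAY replicate 2 are high for muscle fiber genes.

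Genes whose levels followed the globin sum were ranked by Pearson's r over the 8 libraries of a tissue, as a description. The globin members make up that sum, and all members were left out of the nearest genes named. In bone, the nearest of 16984 genes, with the members left out, were Comp (r = 0.956), Igfbp7 (0.954), Rpl36a-ps2 (0.945), Rps24-ps3 (0.938), Vault (0.933), Clu (0.932), Gsn (0.927), Fn1 (0.918), Gm13835 (0.917) and Phospho1 (0.917). They include matrix proteins of cartilage and connective tissue and copies of ribosomal protein genes. Depth and olfactory density varied between these 8 libraries, and their part in these correlations was not tested. Alas2 had r = 0.825 and Slc4a1 r = 0.760. In muscle, the nearest of 5559 genes, again with the members left out, were Gfer (0.960), Ufc1 (0.897), Bace1 (0.874), Dennd4c (0.866), Farp2 (0.865), Naa10 (0.864), Hars (0.858), Gm6863 (0.857), Ampd3 (0.850) and Rpa1 (0.837).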

How the data were processed

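The genes and lists were chosen with earlier results of these data known. RNA was extracted with TRIzol from bone and with a Maxwell kit from muscle, and libraries were made with a stranded mRNA kit. The authors aligned reads with STAR 2.7.8a to mm39, counted Ensembl genes with the Partek expectation-maximization method, scaled to CPM and took log2 after adding an offset, which are the values deposited. The offset, read from the lowest value of each table, was 0.0001 in bone and 0.0004 in muscle. Both tables hold genes with 5 or more reads over the 8 libraries. Reads were recovered from the steps between low values, which gave whole reads for 81.6 to 88.8% of values under 50 reads per library (tolerance 0.02). Each whole table was fitted with limma 3.58.1 (lmFit, eBayes with trend, P adjusted by Benjamini-Hochberg) on the deposited log2 values, after a check on simulated data. A gene was called at unadjusted P under 0.05 and 2-fold. Each member was also tested by a 2-sided exact permutation test in the tissues where it was measured. Named genes were the 7 members, every called gene of a list, genes among the 4 most abundant of a list, and the 10 genes nearest the globin sum. These 10 were taken from genes with a mean of 10 CPM, with the members left out. The column of muscle VEH replicate 3 is named as a replacement. Lengths and sequences are from GENCODE and GRCm39. Replicates were separate mice.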

Additional observations from a re-analysis of the deposited data

Results flagged for a closer look

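Alas2 per 100 CPM of globin in cortical bone VEH replicate 2 was 12.3, away from the other 3 VEH libraries at 5.68, 6.17 and 5.76, beyond the 95% limit of Dixon's test for 4 samples. That library held 84 globin reads and an olfactory density of 7.89 CPM per kb, against which Alas2 stood at 0.593 times. It was 1 of 22 groups of values examined in bone and the only one found there, with none among 20 in muscle, where chance gives about 1 in 20.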

How the results depend on the processing

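No member was called in the main result of either tissue, and in 1 of 19 alternatives in bone and 0 of 16 in muscle. With 1 library left out, the number of members called ran from 0 to 1 in bone and from 0 to 0 in muscle. The value of 1 came without bone VEH replicate 2, where Slc4a1 was called. In bone, leaving out the deepest and shallowest libraries, an alternative chosen after seeing the data, turned Hba-a1 to 0.15, Hba-a2 to 0.27, Hbb-bs to 0.046 and Hbb-bt to 0.68. With 1 library left out, Hbb-bt ran from -1.19 to 0.40 in bone, and in muscle Hba-a1 ran from -0.31 to 0.064, Hbb-bt from -0.53 to 0.0062, Alas2 from -0.054 to 0.45 and Slc4a1 from -0.45 to 3.30. The cause was not tested. Subtracting the olfactory density together with log2(CPM + 1), also chosen after seeing the data, gave -0.54 for Hba-a2 to -1.97 for Slc4a1, which was -1.06 with log2(CPM + 1) alone. The subtraction put Slc4a1 and Alas2 at 0 in VEH replicate 2 and BAY replicate 4, and Klf1 at 0 in 2 VEH and 4 BAY libraries. With voom on recovered reads without VEH replicate 1, Hbb-bt came to -0.077, Hba-a2 to -0.12 and Slc4a1 to -0.84.

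With the replicate block, 0 members were called in each tissue, and the calls over all genes were 305 in bone against 249 without it and 489 in muscle against 510. Same-numbered libraries deviated together with correlations of 0.195, -0.113, 0.668 and 0.478 in bone and -0.149, -0.264, 0.0972 and -0.081 in muscle, so 3 of 4 bone pairs and no muscle pair were above 0.1, and the numbers were not taken to pair the mice. The calls over all genes moved further with other settings. In bone they were 82 after a filter at a mean of 1 CPM, 443 after median centering, 408 without the trend, 1433 with voom (1431 raised and 2 lowered), 557 without the deepest and shallowest libraries (238 and 319), 1116 without VEH replicate 2, 115 without VEH replicate 3, 130 without VEH replicate 4, 157 and 155 without BAY replicates 1 and 2. In muscle they were 52 with log2(CPM + 1) and 193 after the filter. The muscle fiber genes called in bone went from 0 to 9 of 9 with log2(CPM + 1) and to 8 of 9 with the replicate block or without VEH replicate 1. The osteoblast and osteocyte genes called there went from 0 to 3 of 9 with log2(CPM + 1) or the replicate block, and to 8 of 9 with voom without VEH replicate 1, where 5 of 12 neutrophil genes were called. The red cell lists in bone moved too. Late erythroid genes called went from 0 to 2 of 15 with median centering. Red cell membrane genes called went from 0 to 1 of 16 with the replicate block or without VEH replicate 1. Of the globins of other tissues, 1 of 3 was called with log2(CPM + 1), log2(CPM + 0.1), the replicate block or without VEH replicate 1. Klf1 in bone and Slc4a1 in muscle rested on few reads. Over leave-one-out fits Hp in muscle ran from -5.46 to -2.23.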
